A study of Mus musculus with 10 samples.

Results

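The genes of antigen presentation by the major histocompatibility complex (MHC) were examined in mouse kidney. They were chosen by gene symbol, and 9 of 9 were found among the 43629 genes of the count table. There were 5 genes of the class I route (B2m, H2-K1, H2-D1, Tap1 and Tapbp) and 4 of the class II route (Cd74, H2-Aa, H2-Ab1 and H2-Eb1). The data are 10 kidney libraries of UM-HET3 male mice aged 4 months. The 6 control mice were kept on the Purina 5LG6 diet and the 4 treated mice ate that diet with 10 ppm rilmenidine, a drug against high blood pressure, for 1 month, starting at 3 months. UM-HET3 mice are bred from a cross of several inbred strains, so that littermates differ in genotype. The comparison asks what the drug does to gene expression in the kidney, and the stock also lets the spread of these genes among animals be described.

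Class I molecules display peptides made inside the cell. A heavy chain, encoded in the mouse by genes such as H2-K1 and H2-D1, pairs with beta-2 microglobulin (B2m), after Tap1 and its partner have carried peptides into the endoplasmic reticulum and tapasin (Tapbp) has helped to load them. Class II molecules are pairs of an alpha and a beta chain (H2-Aa with H2-Ab1, and an E alpha chain with H2-Eb1), which the invariant chain (Cd74) escorts to the compartment where peptides of engulfed proteins are loaded. Nearly all cells carry class I molecules, whereas class II molecules are best known from dendritic cells, macrophages and B cells. The heavy chain and class II chain genes lie together on chromosome 17 and are among the most variable genes between inbred strains.

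Total counts per library ran from 863605 to 3232063, with a median of 1489031 in control and 2483263 in rilmenidine kidneys. A gene was tested where 7 or more of the 10 kidneys had 6 or more reads. By the quasi-likelihood test of edgeR, 0 of the 10055 such genes passed a Benjamini-Hochberg adjusted p-value of 0.05, while 10.6% had an unadjusted p-value under 0.05. The labels' extraction text speaks of liver, but kidney tubule markers summed to 41335 to 68706 CPM (reads scaled by the size of each library, with RLE normalization in edgeR as throughout). The liver markers summed to 2.24 to 27.0 CPM. Malat1, a nuclear noncoding RNA, stood at 1182 to 2100 CPM in controls 1, 3, 4 and 5 and at 284 to 398 CPM in the other 6 kidneys. Olfactory and vomeronasal receptor genes held at least 10 CPM in 7 libraries, 5 control and 2 rilmenidine. Neither feature is recorded as a batch.

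The upstream sequences of the members show what the genes of a class share before their counts are compared. Of 8 members looked up in RefSeq promoters of GRCm38.p6, 7 were matched (H2-Ab1 was not, and Cd74 was not looked up). H2-Aa and H2-Eb1 are printed because they encode chains of the 2 class II molecules and varied together in the kidneys. Starts are those of RefSeq. For H2-D1 and Tapbp they lie inside the span that GENCODE gives the gene, so that distances from them do not count from the gene coordinates printed further on. The capitals mark letters searched for on both strands in the 250 bases before the RefSeq start of the gene, namely the X box core GCAACT, the Y box CTGATTGG and the CRE core TGACG. These are matches of letters, and binding was not measured. The H2-Aa stretch is chr17:34287824-34288073 on the minus strand, and the H2-Eb1 stretch is chr17:34305617-34305866 on the plus strand.
H2-Aa: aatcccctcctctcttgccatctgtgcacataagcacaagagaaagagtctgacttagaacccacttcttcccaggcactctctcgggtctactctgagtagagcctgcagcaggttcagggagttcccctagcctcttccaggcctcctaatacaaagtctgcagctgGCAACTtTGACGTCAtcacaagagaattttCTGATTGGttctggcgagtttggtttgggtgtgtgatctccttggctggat
H2-Eb1: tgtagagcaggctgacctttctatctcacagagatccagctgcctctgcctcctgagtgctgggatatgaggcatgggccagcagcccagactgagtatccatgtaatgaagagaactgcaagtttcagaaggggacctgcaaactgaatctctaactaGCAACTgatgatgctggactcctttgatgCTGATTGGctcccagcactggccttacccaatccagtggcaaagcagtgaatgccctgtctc
In H2-Aa the X box core began 81 bases and the Y box 51 bases before the start, with a CRE core in between on each strand (at -74 and -71, overlapping each other). In H2-Eb1 the X box core began at -91 and the Y box at -62, and no CRE core was found in this window. Of 27025 RefSeq promoters, 8.98% held the X box core, 4.06% the Y box and 17.8% the CRE core.

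Among the class I genes, H2-K1 and H2-D1 shared a stretch of 30 bases that differed at 1 base, printed here because their levels went in opposite directions in several kidneys. The second run of capitals marks the interferon response letters GAANNGAAA read on the opposite strand. The first marks the 11 letters known as the NF-kappaB site of class I promoters, which open the stretch. The H2-K1 stretch is chr17:34000429-34000458 (minus strand) and the H2-D1 stretch chr17:35262923-35262952 (plus strand).
H2-K1: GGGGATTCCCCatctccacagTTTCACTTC
H2-D1: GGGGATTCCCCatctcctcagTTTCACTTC
The stretch began 111 bases before the RefSeq start of H2-K1 and 171 bases before that of H2-D1. Across their 250 bases, the best local alignment had 161 identical letters in 177 columns. The 11 opening letters were found on either strand in 7 of all promoters (0.0259%) and the interferon response letters in 6.35%. The interferon response letters were not found in the windows of B2m, Tap1, Tapbp, H2-Aa or H2-Eb1. Outside class II, Tap1 held an X box core at -196 and a Y box at -222, and H2-D1 a Y box at -53. The CRE core was found in B2m (-78), H2-K1 (-41), H2-D1 (-101) and Tap1 (-86). The TATA letters TATAAA, in 12.98% of all promoters, were found in H2-D1 at -26 and in B2m at -152. The shared stretch and the CRE core both began further from the start in H2-D1 than in H2-K1. Counterparts of the H2-D1 letters at -53 and -26 could therefore lie past the H2-K1 start, outside the bases searched.

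**Figure D1:**
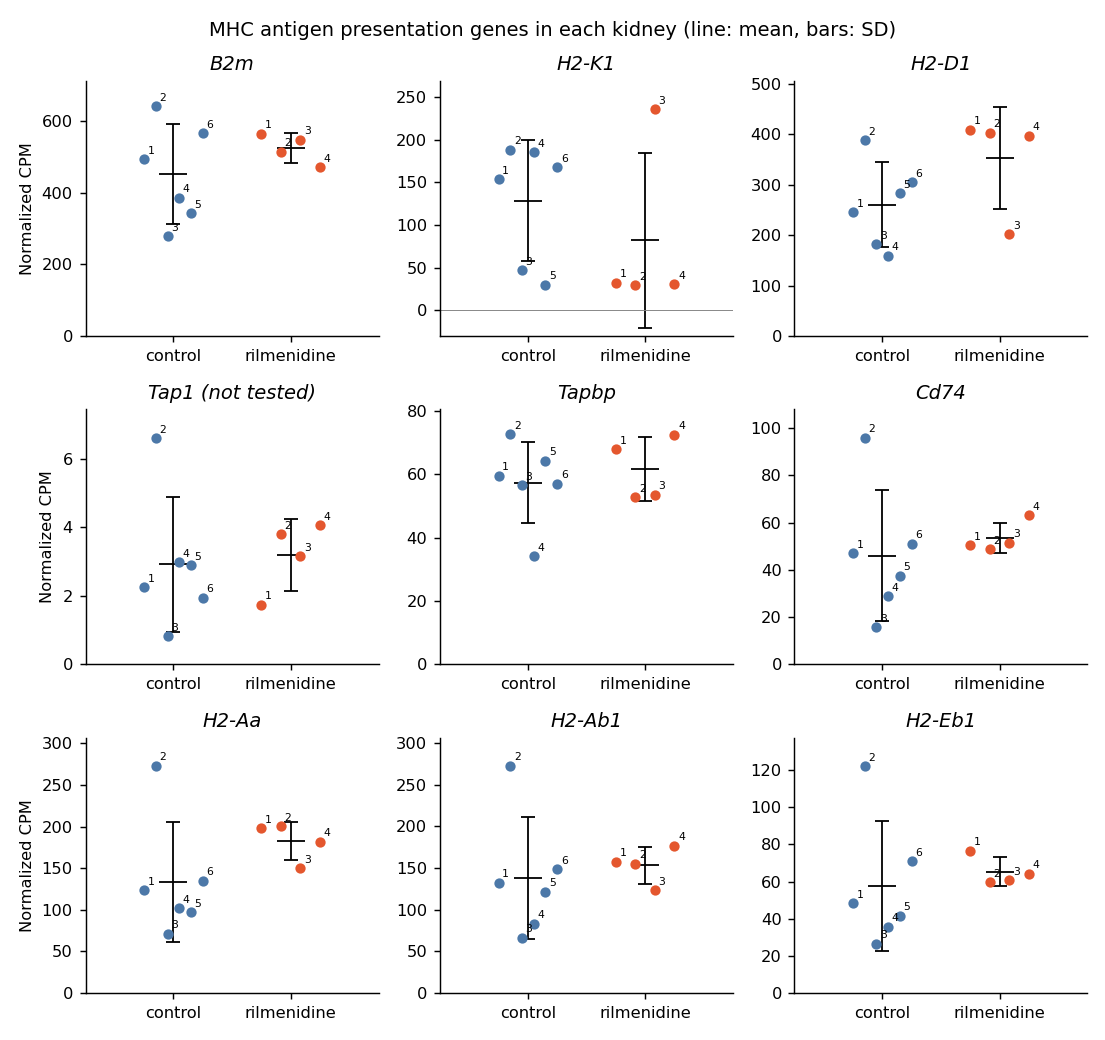
Normalized CPM of each of the 9 members (vertical axes, scaled separately) in 6 control (blue) and 4 rilmenidine (red) kidneys, with the replicate number beside each point, the mean as a line and the SD as bars. The groups overlap for every member; H2-K1 falls into a low set up to 47.3 CPM and a high set from 154 CPM, so the SD bar of its rilmenidine group reaches below 0, and control 2 is the highest kidney for all 4 class II members.

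H2-K1 and H2-D1, the class I heavy chain genes, differed widely among the kidneys of both groups. H2-K1 (ENSMUSG00000061232, chromosome 17 of GRCm38 from 33996017 to 34000347) stood at 154, 188, 47.3, 186, 30.1 and 168 CPM in controls 1 to 6. In rilmenidine kidneys 1 to 4 it stood at 32.5, 29.3, 236 and 30.9 CPM. The values left a gap between 47.3 and 154 CPM, with controls 1, 2, 4 and 6 and rilmenidine 3 above it and the other 5 kidneys below it. Both groups had kidneys on both sides, and the highest kidney held 8.05 times the level of the lowest. H2-K1 had 52 to 675 reads in a library, so the low kidneys were still well counted.

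H2-D1 (ENSMUSG00000073411, chromosome 17, 35262730 to 35267499) stood at 246, 388, 183, 159.7, 283 and 306 CPM in controls 1 to 6. Its levels in rilmenidine kidneys 1 to 4 were 409, 403, 203 and 398 CPM. Rilmenidine 3, the treated kidney with high H2-K1, was the treated kidney with low H2-D1, and control 4 likewise joined high H2-K1 to the lowest H2-D1 of all. The pattern was not general, since control 2 was high and control 3 low in both genes. Pearson's r of their log2 CPM was -0.475 over 10 kidneys (permutation p-value 0.157, adjusted over 36 pairs 0.226). In the 6 controls alone r was 0.138. Added together, which was done after the values had been seen, the 2 heavy chain genes came to 442, 433, 439 and 429 CPM in the rilmenidine kidneys (mean 436 ± 5.87, SD, n = 4) and to 229.9 to 576 CPM in the controls (mean 389.7 ± 123, SD, n = 6). The 4 treated kidneys thus lay close together in the sum while spanning most of the range of each gene. Both genes have close relatives, and 9.60% of 50-base windows in the last 500 bases of H2-K1 transcripts and 8.92% of those of H2-D1 were also found in other genes, each other among them. Reads from such windows may be split or lost, so the levels of both genes are uncertain. The shares were counted in reference transcripts alone and set no upper limit on the error. Whether alleles of the other strains of the cross were counted equally was not tested.

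**Figure D2:**
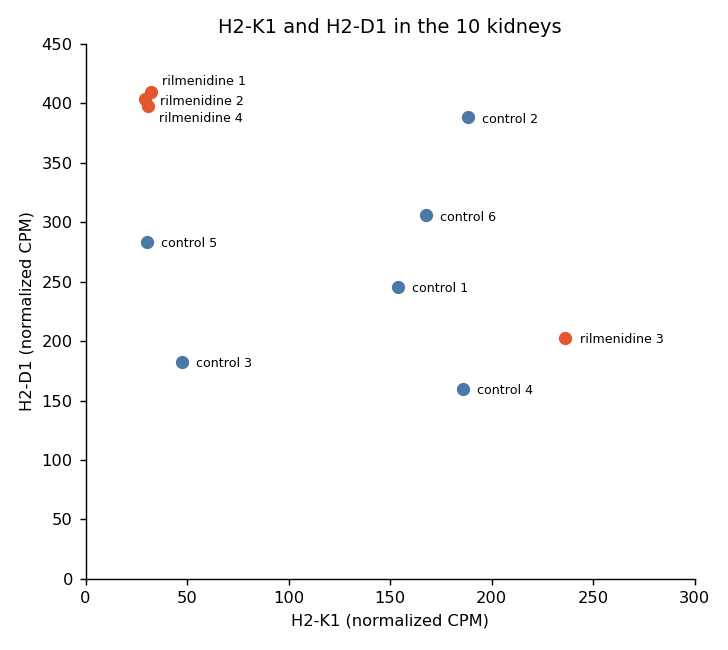
H2-D1 against H2-K1 in normalized CPM, 1 point per kidney, control in blue and rilmenidine in red. Rilmenidine 1, 2 and 4 lie together at about 30 CPM of H2-K1 and 398 to 409 CPM of H2-D1, rilmenidine 3 lies at 236 and 203 CPM, and the controls are scattered over both axes.

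B2m, the light chain shared by class I molecules (ENSMUSG00000060802, chromosome 2, 122147686 to 122153083), stood at 494, 641, 279, 386, 343 and 566 CPM in controls 1 to 6. In rilmenidine kidneys 1 to 4 it stood at 565, 514, 547 and 471 CPM. The treated kidneys lay inside the range of the controls, which was 2.30-fold. Tapbp (ENSMUSG00000024308, chromosome 17, 33915899 to 33929292), which holds class I molecules to the peptide transporter, had 59.5, 72.5, 56.4, 34.2, 64.2 and 56.9 CPM in the controls and 67.8, 52.7, 53.5 and 72.4 CPM in the rilmenidine kidneys. It was the steadiest member, with control 4 alone under 50 CPM. Zbtb22 overlaps Tapbp on the same strand over 3422 bases and had 141 reads in all 10 libraries.

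Tap1 (ENSMUSG00000037321, chromosome 17, 34187553 to 34197225), of the peptide transporter, had 1 to 13 reads in a library and reached 6 reads in 4 of the 10 kidneys, so it did not pass the filter. Its levels were 2.24, 6.59, 0.830, 2.97, 2.89 and 1.95 CPM in the controls and 1.74, 3.80, 3.15 and 4.06 CPM in the rilmenidine kidneys. At these counts a difference between the groups was not detectable. Fitted in edgeR with all genes that had any count, it gave a log2 fold change of 0.12, with a standard error of 0.65 and an adjusted p-value of 0.991.

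The 4 class II genes rose and fell together from kidney to kidney, with control 2 at the top and control 3 at the bottom for each of them. H2-Aa (ENSMUSG00000036594, chromosome 17, 34282744 to 34287823), an alpha chain, had 123, 273, 71.4, 102, 97.2 and 135 CPM in controls 1 to 6. Its rilmenidine kidneys had 198, 200.4, 150.1 and 182 CPM, each above every control but control 2. H2-Ab1 (ENSMUSG00000073421, chromosome 17, 34257689 to 34269419), its beta chain, had 132, 273, 66.4, 83.2, 121 and 149 CPM in the controls and 158, 155, 123 and 177 CPM in the rilmenidine kidneys. Rilmenidine 3 was the lowest treated kidney for both chains.

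H2-Eb1 (ENSMUSG00000060586, chromosome 17, 34305867 to 34316674), the beta chain of the other class II molecule, had 48.3, 122, 26.6, 35.7, 41.6 and 71.0 CPM in controls 1 to 6. In rilmenidine kidneys 1 to 4 it had 76.5, 59.7, 60.9 and 64.3 CPM. Cd74 (ENSMUSG00000024610, chromosome 18), the invariant chain, had 47.1, 95.9, 15.8, 28.97, 37.6 and 51.1 CPM in the controls and 50.5, 48.9, 51.4 and 63.1 CPM in the rilmenidine kidneys. Cd74 is encoded away from the MHC, yet its order of kidneys was like that of the chains (Spearman's rho 0.794 to 0.891 over 10 kidneys, given as a description). Summed over the class, the controls spanned 180.1 to 765 CPM (median 325) and the rilmenidine kidneys 386 to 486 CPM (median 473). The controls therefore differed 4.25-fold and enclosed all 4 treated kidneys. Controls 1, 3, 4 and 5, which had the high Malat1 levels, held the 4 lowest class II sums, 180.1 to 351 CPM. The other 6 kidneys held 386 to 765 CPM, and the part of Malat1 in these levels was examined only as a covariate.

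Rilmenidine and control kidneys were then compared gene by gene. Of the 8 members tested, 0 passed an adjusted p-value of 0.05 (0% of all genes did), and 0 had an unadjusted p-value under 0.05, against 10.6% of all genes (4.43% higher and 6.13% lower with rilmenidine). The 2 groups overlapped for all 9 members, and 1.67% of all genes had groups that did not overlap. The fit put 7 of the 8 members above 0 on the log2 scale, as it did 50.3% of all genes, and 5 of those 7 turned negative when log2 Malat1 CPM was added to the fit. The median was 0.16 over the 4 class I members tested and 0.18 over the 4 class II members, beside 0.00 over all genes. In the fit with Malat1 the 5 negative values had standard errors of 0.19 to 0.33. All 4 kidneys with high Malat1 were controls, so treatment and the Malat1 level cannot be fully told apart.

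The largest fitted changes were those of H2-K1, H2-Aa and H2-D1. For H2-K1 the log2 fold change was -0.62 (standard error 0.58, 95% interval -1.85 to 0.60) and the Benjamini-Hochberg adjusted p-value in edgeR 0.754. This interval is the widest of the 8, and the value moved to -2.06 (standard error 0.48, adjusted p-value 0.553 in edgeR) when rilmenidine 3 was left out. It was -0.37, -0.35 and -0.34 without rilmenidine 1, 2 and 4. Within the 7 libraries with at least 10 CPM of receptor genes it was -1.96 (standard error 0.58, adjusted p-value 0.323 in edgeR). Of the treated kidneys these hold only rilmenidine 1 and 2, so this setting leaves out rilmenidine 3 as well. H2-K1 passed the threshold in 1 alternative, the edgeR fit of all genes with any count, with -0.62, a standard error of 0.16 and an adjusted p-value of 0.0235. The fold change was nearly unchanged there, while the standard error was far smaller. In that fit B2m, H2-D1 and H2-Aa had nearly the same standard error (0.16, 0.15 and 0.16), though their spread among kidneys was narrower.

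For H2-Aa it was 0.44 (standard error 0.26, 95% interval -0.12 to 1.00, edgeR adjusted p-value 0.587). Without control 2 it was 0.78 (standard error 0.17) with an edgeR adjusted p-value of 0.0605. H2-D1 had 0.43 (standard error 0.23, interval -0.058 to 0.92, edgeR adjusted p-value 0.532). Within the 7 libraries with receptor gene counts, which leave out rilmenidine 3, H2-D1 had 0.68. For these 2 genes the intervals leave room for a doubling or near-doubling as well as for a small decrease.

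The other 5 tested members had log2 fold changes between 0.10 and 0.21 on the same scale. B2m had 0.21 (interval -0.19 to 0.62, edgeR adjusted p-value 0.741) and Tapbp 0.10 (interval -0.28 to 0.48, edgeR adjusted p-value 0.898). Cd74 had 0.20 (-0.46 to 0.85), H2-Eb1 0.16 (-0.48 to 0.80) and H2-Ab1 0.15 (-0.44 to 0.73), with edgeR adjusted p-values of 0.879, 0.916 and 0.912. Control 2 weighed on the last 3, whose log2 fold changes without it were 0.55, 0.52 and 0.47, with edgeR adjusted p-values of 0.324, 0.308 and 0.317. Without control 3 they were 0.03, 0.02 and 0.01.

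**Figure D3:**
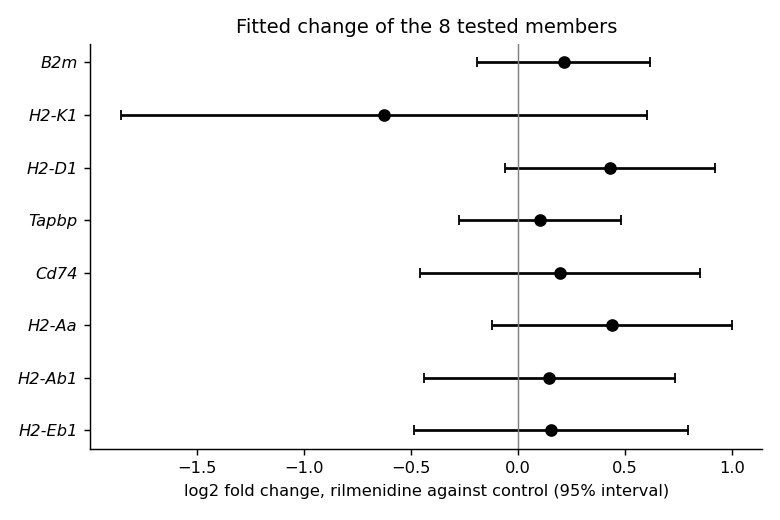
Fitted log2 fold change of rilmenidine against control kidneys for the 8 tested members (points), with 95% intervals from the edgeR fit (bars) and a line at 0. Every interval includes 0, and that of H2-K1, from -1.85 to 0.60, is the widest.

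The spread among kidneys of a group was described by the biological coefficient of variation (BCV) of edgeR, the square root of the dispersion, divided by its trend over genes of like abundance. Of the 8 tested members, 7 lay above the trend, as did 30.2% of all genes. The ratio was 4.29 for H2-K1, at the 99.7th percentile of all genes. The class II genes followed with 2.28 for Cd74, 2.20 for H2-Eb1, 2.04 for H2-Ab1 and 1.94 for H2-Aa, at percentiles 96.3 to 98.1. H2-D1 had 1.595 and B2m 1.19, and Tapbp lay at 0.94, under the trend. Of all genes, 3.42% had a ratio of at least 2.

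The wide spread of H2-K1 did not rest on 1 kidney, while that of the class II genes was in large part a matter of control 2. In the 6 controls alone the ratio of H2-K1 was 3.49, and without rilmenidine 3 it was 2.98. Without control 2 the ratios of H2-Aa, H2-Ab1, H2-Eb1 and Cd74 fell to 0.96, 1.33, 1.36 and 1.51. Without control 3 they lay between 1.72 and 1.92.

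Expression of the members was compared pair by pair over the 10 kidneys, as log2 CPM with a prior count of 2, to see which vary together. Because the members were chosen with earlier results of these data known, the counts of pairs are a description. All 36 pairs were computed, but the 8 pairs with H2-K1 were not pooled, as its values fell into separate sets of 5 kidneys. Of the other 28 pairs, 18 had a permutation p-value under 0.05 after Benjamini-Hochberg adjustment over the 36 pairs. They comprised all 6 pairs within class II, 11 of 16 pairs between the classes and 1 of 6 within class I, H2-D1 with Tapbp. The share among pairs of all genes was not computed, so whether the count is particular to these members was not tested. Pearson's r within class II ran from 0.904 for Cd74 with H2-Aa to 0.965 for Cd74 with H2-Ab1. The latter pair had a Spearman's rho of 0.842, a permutation p-value of 2e-05 and an adjusted value of 0.00054.

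B2m also varied with the class II genes. Its Pearson's r with H2-Eb1 was 0.920 and its rho 0.903, with a permutation p-value of 9e-05 and an adjusted value of 0.00072. Without the 2 kidneys farthest from the median of B2m, r was 0.909. After the 2 farthest kidneys had been left out of every pair, 0 of the 28 pairs passed the adjusted threshold with 8 kidneys, and r within class II was 0.758 to 0.917. In the 6 controls alone 9 pairs passed by the exact permutation test. Without the 2 farthest kidneys r was 0.728 to 0.909 between B2m and the class II genes. It fell from 0.716 to 0.412 for H2-D1 with Cd74 and from 0.786 to 0.081 for Tap1 with Cd74, so the pairs did not all keep their size.

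**Figure D4:**
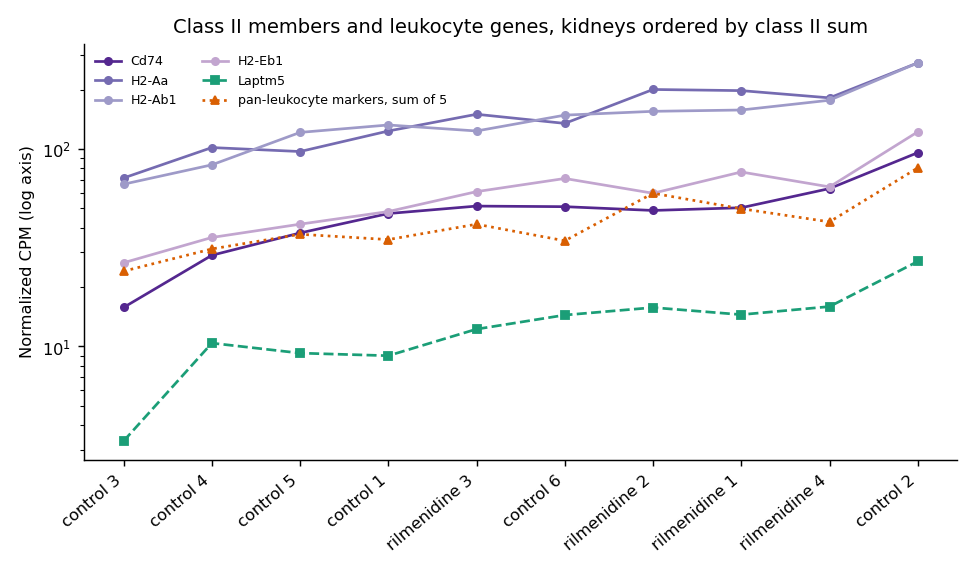
Normalized CPM (log axis) of the 4 class II members, of Laptm5 and of the summed pan-leukocyte markers (Laptm5 is 1 of these 5) in the 10 kidneys, ordered from left to right by the class II sum. The class II lines run together from control 3 to control 2, where H2-Aa rises from 71.4 to 273 CPM, and Laptm5 rises from 3.32 to 27.0 CPM.

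The summed pan-leukocyte and macrophage markers were highest in control 2, as were the class II genes, but single markers did not all follow. The dendritic cell sum and the T and NK cell sum were highest in rilmenidine 2. The 5 pan-leukocyte markers, of which Ptprc (CD45) and Coro1a are the defining ones and Laptm5 is another, summed to 34.8, 80.3, 24.1, 31.2, 37.0 and 34.3 CPM in controls 1 to 6 and to 49.9, 59.7, 41.6 and 42.8 CPM in the rilmenidine kidneys. Control 2 was again the highest kidney and control 3 the lowest. Ptprc had 6 to 32 reads and Coro1a 1 to 9 reads in a library. Ptprc was highest in rilmenidine 2 (17.4 CPM) and Coro1a in rilmenidine 4 (2.81 CPM). The 11 macrophage markers summed to 69.7 to 173 CPM in the controls, highest in control 2, and to 106 to 135 CPM in the rilmenidine kidneys. Csf1r had 18 to 122 reads and Adgre1 0 to 14 reads. Among the controls, Csf1r was lowest in control 2 (19.2 CPM) and highest in control 3 (30.7 CPM). Adgre1 was highest in rilmenidine 2 (7.60 CPM). The part of these markers in the class II levels was not tested. In whole kidney, fewer cells of a type and less RNA per cell cannot be told apart.

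The other blood cell lists were near the limit of detection. The 7 dendritic cell markers summed to 10.1 to 20.8 CPM in control and 6.56 to 25.5 CPM in rilmenidine kidneys, with Itgax at 0 in 5 libraries and Flt3 at 0 in 4. Of the B cell markers, Cd79a, a chain of the B cell receptor complex, had 0 reads in all 10 libraries. The 7 T and NK cell markers summed to 0 to 5.39 and 2.10 to 10.3 CPM, with Cd3d at most 4 and Cd3e at most 8 reads. The markers of endothelial cells, which line the vessels, summed to 170.1 to 301 CPM in controls and 249.8 to 299.8 CPM in rilmenidine kidneys, with Pecam1 at 11 to 54 and Kdr at 46 to 191 reads. Control 3 had the lowest endothelial sum too.

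The genes whose pattern was most like that of the class II members were a mixed set of 5. By Pearson's r of log2 CPM with the class mean over 10 kidneys, given as a description, they were Laptm5 (0.947), a lysosomal membrane protein of blood cells, Ctss (0.938), the protease that trims the invariant chain, Fkbp2 (0.929), Comtd1 (0.925) and Prodh (0.919). An r above 0.8 was reached by 1.70% of all genes. In the 6 controls alone these r were 0.937 to 0.984, and without controls 2 and 3 they were 0.731 to 0.910. The genes most like the class I mean were Uap1l1 (0.934), Commd3 (0.928), Eef1d (0.922), Gimap6 (0.910), of a family of lymphocyte GTPases, and Mlf2 (0.905). Without controls 2 and 3 these r were 0.642 to 0.849, and 0.617% of all genes had an r above 0.8 with the class I mean. All points share their libraries, and controls 2 and 3 were the farthest kidneys for both classes.

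The rest of the pathway was described by lists written for it, in none of which a gene passed the adjusted threshold. Of the class I peptide supply and loading genes, 6 of 6 were tested and all 6 had fitted log2 fold changes under 0 (median -0.06). Tapbpl, a relative of tapasin, had the lowest at -0.21 and the widest spread (ratio 1.30), and Calr, the chaperone calreticulin, had the highest at -0.01. These values are small beside the standard errors of 0.13 to 0.41. Of the immunoproteasome and PA28 genes, which cut peptides for class I, 3 of 5 were tested, 2 above 0 and 1 below (median 0.24). Psmb8 had 0.31 (standard error 0.30), Psmb10 -0.03, and Psme1, an activator subunit, had the widest spread of the list with a ratio of 0.99.

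Among 18 other class I and class I-like genes 5 were tested, 2 above and 3 below 0 (median -0.02). Hfe, a class I-like regulator of iron uptake, had the largest change, from 8.22 ± 2.42 CPM (SD, n = 6) to 16.2 ± 4.21 CPM (SD, n = 4). On the log2 scale this was 0.91 (standard error 0.27), with 0.277 as the adjusted p-value in edgeR. The 4 treated kidneys lay at 20.9, 18.5, 11.5 and 14.1 CPM and the controls between 4.15 and 10.99 CPM, so that the groups did not overlap. H2-Q7, a class I gene of the Q region, had -0.32 and a spread ratio of 2.00.

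Of 12 class II loading genes and other class II chains, 5 were tested, 4 above and 1 below 0 (median 0.16). Ctsl, a lysosomal protease, had 0.29 (standard error 0.20), H2-DMb1, of the peptide exchanger, had -0.05, and Ctss had the widest spread with a ratio of 2.08. Of 18 genes of transcription of MHC genes, 13 were tested, 5 above and 8 below 0 (median -0.12). Ifngr2, a chain of the interferon-gamma receptor, had 0.30, Nfya, a Y box factor, had -0.35, and Irf8, a myeloid transcription factor, had a spread ratio of 1.53. The master regulators of the classes were hardly counted, with 1 to 8 reads a library for Ciita (class II) and 0 to 5 for Nlrc5 (class I).

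Interferon-gamma-induced genes had 8 of 16 tested, 2 above and 6 below 0 (median -0.27). All 8 had a spread above the trend, against 30.2% of all genes. Control 2, the kidney highest in class II genes and in summed pan-leukocyte and macrophage markers, was the highest for 6 of the 8. Gbp2 stood there at 33.0 CPM against 1.16 to 13.4 CPM in the others. The share of all genes highest in control 2 was not computed, nor was the spread of this list without that kidney. Gbp2, a guanylate-binding protein, had the highest signed log2 fold change of the list, 0.09 (standard error 0.55), and the widest spread, with 9.76 ± 11.6 CPM (SD, n = 6) in controls, 10.4 ± 2.73 CPM (SD, n = 4) in treated kidneys and a ratio of 2.86. Gbp4, of the same family, had the lowest at -0.65 (standard error 0.47). Of 24 type I interferon-induced genes 12 were tested, 9 above and 3 below 0 (median 0.16). Ifih1, a sensor of double-stranded RNA, had 0.67 (standard error 0.32, edgeR adjusted p-value 0.471), Rsad2, an antiviral enzyme, had -0.52 (standard error 0.18, edgeR adjusted p-value 0.313), and Oasl2 had the widest spread with a ratio of 1.65.

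The spread of neighbouring genes was examined across the MHC region, taken from the start of H2-K2 to the end of H2-M2 (chromosome 17, 33974659 to 37483552). Of 323 annotated genes there, 65 were tested. Their median ratio of spread to trend was 0.87, beside 0.76 for all genes, and 24 of them (36.9%) lay above the trend, beside 30.2%. A ratio of at least 2 was held by 6 of the 65 (9.23%), beside 3.42% of all genes. Leaving out the members, which were 5 of the 65, gave a median of 0.85, 19 of 60 (31.7%) above the trend and 3 of 60 (5%) with at least 2. Neighbouring genes are not independent, and these shares are a description.

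After H2-K1, the widest spread in the region was that of C4b (ratio 2.498), a complement component, Hspa1b (2.49), an inducible heat shock protein, Apom (2.48), an apolipoprotein, and H2-Eb1 (2.20). Apom had 54.1 ± 27.1 CPM (SD, n = 6) in controls and 101 ± 38.3 CPM (SD, n = 4) with rilmenidine, a log2 fold change of 0.88 (standard error 0.33, edgeR adjusted p-value 0.350). C4b had 15.7, 7.79, 6.64, 1.49, 16.2 and 9.36 CPM in controls 1 to 6 and 12.2, 11.4, 3.15 and 23.7 CPM in the rilmenidine kidneys. Its lowest kidneys were control 4 and rilmenidine 3, which held high H2-K1 and low H2-D1. H2-T22, a class I-like gene picked after the values had been seen, was highest in the same 2 kidneys, at 26.7 and 20.3 CPM, with 6.36 to 15.0 CPM in the others.

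**Figure D5:**
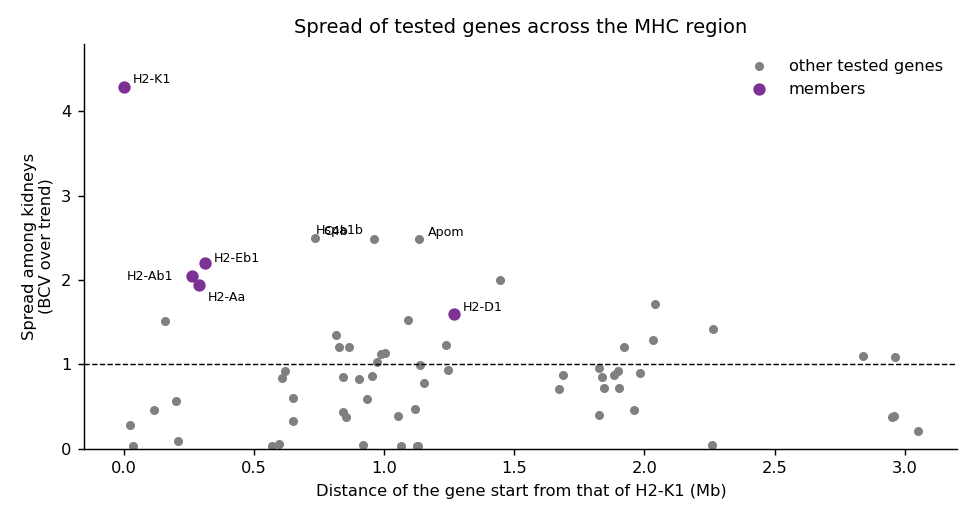
Ratio of the BCV to its trend (vertical axis, dashed line at 1) for the 65 tested genes of the MHC region, against the distance of each gene's start from that of H2-K1 in Mb. The 5 tested members in the region (purple) all lie above 1, H2-K1 at 4.29 far above the rest, while 19 of the 60 other genes (grey) lie above 1. Tapbp (ratio 0.94), also on chromosome 17, lies before the start of the region and is not shown, and Tap1 was not tested.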

How the data were processed

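Kidney RNA of 6 control and 4 rilmenidine UM-HET3 males was sequenced from 3′-end libraries with molecular identifiers. Samples were grouped by their labels, which name 6 controls where the study's methods name 8. Raw counts per Ensembl gene were deposited by the authors, made with Trimmomatic 0.32, STAR 2.5.2b and featureCounts 1.5 on mm10 (their processing notes also name bcl2fastq 1.8.4). The annotation release, strand setting and handling of molecular identifiers are not given in the sources used here, so overlapping and antisense genes are uncertain. The mm10 build represents C57BL/6J, and whether reads of the other founder strains' alleles were counted equally was not tested.

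Of the 43629 genes, 42548 were found in GENCODE M21 (GRCm38). The 10055 genes that had 6 or more reads in 66.6% or more of the kidneys were kept. The deposited counts of these genes were scaled by RLE and fitted with edgeR 4.0.16 (R 4.3.3) with the quasi-likelihood test and no covariate, with Benjamini-Hochberg adjustment over all of them. CPM use RLE library sizes. BCV was estimated per gene without shrinkage and divided by the trend. Pairs were tested by permutation (100000 resamples, exact in the 6 controls) in Python 3.11.15. On simulated counts with a log2 change of 1.5 the test recovered 175 of 194 changed genes (90.2%) among 9816, with 9 false calls, and made 0 calls among 9802 unchanged genes. Counts of 863605 to 3232063 per library limit genes such as Tap1, and intervals include the differences among animals.

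The members, lists and tests were chosen with earlier results of these data known. Named genes were the 9 members; of each pathway list the genes past the threshold or, with none, the highest and lowest fold change and the widest spread; the first 2 markers of each marker list; the 5 genes most like each class; and the 5 of the MHC region with the widest spread. H2-T22 was added after its values were seen. For 1 marker list a gene and the sum are not reported here. Alternatives were TMM normalization, 2 other filters, DESeq2 1.42.0, the edgeR likelihood ratio test, covariates for library size and Malat1, the replicate block, libraries with receptor gene counts, and leaving out each kidney.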

Additional observations from a re-analysis of the deposited data

Results flagged for a closer look

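Dixon's test at the 95% level was applied to 28 sets of values (14 quantities in 2 groups), of which chance marks about 1 in 20, and it marked 6. In the rilmenidine group, kidney 3 stood apart in H2-K1, with 236 CPM against 32.5 CPM in the nearest kidney, and in H2-D1, with 203 CPM against 398 CPM. In the control group, kidney 2 stood apart in Tap1 (6.59 CPM, nearest 2.97 CPM) and in H2-Aa (273 CPM, nearest 135 CPM). The same kidney stood apart in the summed pan-leukocyte markers (80.3 CPM, nearest 37.0 CPM) and macrophage markers (173 CPM, nearest 105 CPM). The part of these markers in the H2-Aa level was not tested.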

How the results depend on the processing

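Over 19 alternatives the 8 tested members gave 152 fitted values, of which 142 kept their direction and side of the threshold, 9 reversed and 1 passed the threshold. When library size (log2) entered the fit, the log2 fold changes of Cd74, H2-Ab1 and H2-Eb1 reversed to -0.13, -0.094 and -0.14. With log2 Malat1 CPM as a covariate those of B2m, Cd74, H2-Aa, H2-Ab1 and H2-Eb1 reversed to -0.15, -0.28, -0.039, -0.29 and -0.43, and without control 4 that of Tapbp to -0.0072 (up to 0.18 leaving out another kidney). The number of members called was 1 (H2-K1) with genes kept at 1 count in any sample and 0 to 0 when each kidney was left out. The class I median ranged from -0.070 to 0.26 (0.083 to 0.26 leaving out a kidney) and the class II median from -0.28 to 0.54 (0.025 to 0.54). Genes called numbered 241 of 27565 with the low filter, 60 with DESeq2, 44 with the likelihood ratio test, and 0 to 37 leaving out a kidney (33 without control 2, 37 without control 6, 6 without rilmenidine 1). The causes were not tested. Member pairs past the threshold went from 18 to 9 in the 6 controls alone and to 0 without the 2 farthest kidneys.

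Controls and rilmenidine kidneys with the same replicate number did not deviate together (r of -0.077 to 0.077 for 4 numbers, none matching its own number best), so the numbers were not taken to pair the kidneys. With the replicate block 3 genes and 0 members were called. Members above the spread trend numbered 6 to 8, and genes of the MHC region above it 22 to 28. Counts of 1 to 13 reads set the limit for Tap1, and with 4 treated kidneys the intervals of all 8 tested members include 0.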

Other observations

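H2-Ea-ps, an E alpha chain gene that the reference annotation names a pseudogene, was singled out after its values were seen. It had 3 reads in control 6, 2 in rilmenidine 4 and 0 in the other 8 kidneys. Whether reads of other founder strains' alleles were counted there was not tested. H2-Oa, of the class II peptide exchanger's regulator, had 0 reads in all 10 kidneys. Interferon-gamma-induced genes other than Gbp2 also had wide spread, with a ratio to the trend of 2.62 for Igtp and 2.21 for Iigp1, both immunity-related GTPases and both picked after their values were seen. Both were highest in control 2, Igtp at 68.3 CPM against 10.99 to 23.7 CPM in the others and Iigp1 at 37.2 CPM against 4.63 to 13.5 CPM.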
